A study of Homo sapiens with 18 samples.

Results

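The ID genes ID1, ID2, ID3 and ID4 and the feedback inhibitors SMAD6, SMAD7, SKIL and BAMBI were followed in A2780 and Acis cells. They were taken by gene name from a table of RNA-seq counts, which held all 8 of them among 23622 genes. Of these 8, 7 passed the filter on low counts, as did 15760 genes in all, and BAMBI did not. A2780 is an ovarian carcinoma line that is sensitive to cisplatin, and Acis (A2780cis) is a single cisplatin-resistant line derived from it, which was kept resistant with 1 µM cisplatin every 3 passages. The groups compared were A2780 control, A2780 cisplatin, Acis control and Acis cisplatin, where cisplatin stands for 200 µM for 3 h and control for cells without this treatment. Each group had 3 RNA-seq libraries and 1 list of ATAC-seq peaks, which mark accessible chromatin. The labels name no allele and no other agent. Cisplatin was given in fresh medium, and whether control cells had a medium change at that time is not given in the sources used here, so each cisplatin effect below may include one and the 2 cannot be told apart.

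Bone morphogenetic proteins (BMPs) bind receptor kinases that phosphorylate SMAD1, SMAD5 and SMAD9, which enter the nucleus with SMAD4 and switch on target genes. The ID genes are classical direct targets of this pathway. Their proteins carry a helix-loop-helix but no DNA-binding domain, and they hold back E proteins and other basic helix-loop-helix factors by pairing with them. SMAD6 and SMAD7 are inhibitory SMADs that block the receptors, SKIL (SnoN) represses SMAD complexes in the nucleus, and BAMBI is a membrane protein that resembles a receptor without a kinase. These inhibitors are themselves induced by BMP or TGF-beta signals and so form feedback loops.

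The total counts of the 12 libraries ranged from 4130644 to 5072216. Per the study's methods, cells of each condition were seeded in triplicate wells, so the p-values measure the spread between such wells of 1 line. Squared differences between 2 libraries of 1 group averaged 0.73 to 1.53 times the variance from counting alone. For the 3 pairs of A2780 control the ratio was 0.73 to 0.821. The measured spread may therefore be too narrow, and the cause was not tested. Whether the wells came from separate passages is not given in the sources used here. Of the markers for the labelled origin, PAX8, WT1, MUC16, ESR1 and SOX17 had no row in the table, which lists genes with at least 10 counts over the 12 libraries. Of 7 epithelial markers, EPCAM, KRT8 and KRT18 had one, and their summed level was 34.6 to 51.3 normalized counts for A2780 control and 49.0 to 63.6 after its treatment, and 135 to 158 for Acis control and 146 to 154 after its treatment. All 4 fibroblast markers (COL1A1, COL3A1, DCN and LUM) had a row, and their sum was 2609 to 2755, 2063 to 2268, 3891 to 4023 and 3382 to 3543 in the same order. Of 5 immune markers, CD14 and CD79A had a row, with sums of 0 to 2.13, 6.87 to 14.0, 0 to 4.26 and 2.88 to 4.91, while PTPRC, CD3E and LYZ and the 3 endothelial markers had none. The epithelial and fibroblast sums were higher in Acis, the fibroblast sum was lower after cisplatin in both lines, and the immune sum was highest in A2780 cisplatin. The part of these markers in the differences below was not tested.

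The starts of the genes that carry the results are shown here, since the peaks below lie over them. The promoters of ID2, SMAD6, SKIL and ID1 are the 4 with the smallest adjusted p-values after cisplatin in A2780 among members with a peak over the start of the MANE Select transcript in at least 1 list. They come from RefSeq (GRCh38.p14) and run from 250 bases before the start to 49 bases after the start base, 5′ to 3′ on the strand of the gene. RefSeq entries matched all 8 members. Capitals mark the SMAD motifs GGCGCC and GTCT and TGACG, the core of the cAMP response element, each on either strand, so that GTCT also appears as AGAC. The fifth line is the 300 bases around the summit of an ATAC-seq peak upstream of ID1 in A2780 control, read from hg38, because the summit of that peak lay far from the start.
ID2 promoter, chr2:8681806-8682105, plus strand: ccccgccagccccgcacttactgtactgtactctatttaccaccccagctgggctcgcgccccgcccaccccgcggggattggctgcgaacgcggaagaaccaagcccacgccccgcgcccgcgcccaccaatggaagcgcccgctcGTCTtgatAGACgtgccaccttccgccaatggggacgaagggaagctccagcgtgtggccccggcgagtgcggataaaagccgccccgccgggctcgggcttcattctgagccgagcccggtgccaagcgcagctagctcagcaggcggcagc
SMAD6 promoter, chr15:66701986-66702285, plus strand: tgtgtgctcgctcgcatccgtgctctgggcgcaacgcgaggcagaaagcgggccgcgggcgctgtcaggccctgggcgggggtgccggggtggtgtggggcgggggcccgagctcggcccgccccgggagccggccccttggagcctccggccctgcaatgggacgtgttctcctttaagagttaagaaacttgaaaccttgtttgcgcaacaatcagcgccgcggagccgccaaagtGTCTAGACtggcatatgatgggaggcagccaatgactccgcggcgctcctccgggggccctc
SKIL promoter, chr3:170357465-170357764, plus strand: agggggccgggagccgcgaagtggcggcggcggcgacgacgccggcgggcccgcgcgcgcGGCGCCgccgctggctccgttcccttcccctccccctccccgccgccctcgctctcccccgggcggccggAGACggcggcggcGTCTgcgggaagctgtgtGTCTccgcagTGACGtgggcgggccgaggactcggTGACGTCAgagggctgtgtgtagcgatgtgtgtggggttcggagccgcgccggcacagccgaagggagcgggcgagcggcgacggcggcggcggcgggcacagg
ID1 promoter, chr20:31605039-31605338, plus strand: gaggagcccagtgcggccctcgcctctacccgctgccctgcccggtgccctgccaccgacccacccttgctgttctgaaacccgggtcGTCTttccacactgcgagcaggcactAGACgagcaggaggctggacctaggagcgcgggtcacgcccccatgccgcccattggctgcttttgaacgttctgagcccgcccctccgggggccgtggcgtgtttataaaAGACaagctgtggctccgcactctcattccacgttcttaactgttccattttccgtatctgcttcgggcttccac
ID1 upstream peak, chr20:31604183-31604482, plus strand: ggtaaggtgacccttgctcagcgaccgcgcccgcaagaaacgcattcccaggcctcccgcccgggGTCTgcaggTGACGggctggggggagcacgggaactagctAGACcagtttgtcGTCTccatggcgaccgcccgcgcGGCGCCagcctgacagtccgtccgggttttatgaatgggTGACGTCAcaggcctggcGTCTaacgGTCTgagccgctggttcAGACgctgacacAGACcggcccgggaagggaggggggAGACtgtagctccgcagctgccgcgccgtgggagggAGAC

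The promoters of ID2, SMAD6 and ID1 held GTCT, which 84.1% of 27305 RefSeq promoters of the same length hold on either strand, and none of them held GGCGCC or TGACG. In the SMAD6 promoter, copies at -12 and -8 (first base, with the start base as 0) join to GTCTAGAC. The SKIL promoter held GGCGCC at -190, as 19.0% of promoters do, and TGACGTCA, the full cAMP response element, at -54, as 1.98% do. TGACG lies within TGACGTCA, and 25.0% of promoters hold this core. The upstream stretch of ID1 held GGCGCC once at -965, GTCT in 9 places and TGACGTCA at -926. Of the 300 bases around the summits of all 34979 A2780 control peaks, 16.1% hold GGCGCC, 88.3% GTCT and 1.29% TGACGTCA. The E box CANNTG was present at -205 in ID2 and -1 in SMAD6 and absent from the SKIL and ID1 promoters, against 68.9% of promoters, and no stretch printed here held the AP-1 motif TGANTCA, which 7.76% of promoters hold. A match is a string of letters in this window and says nothing about binding.

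The ID genes differed from each other in how they responded to cisplatin, and the feedback genes did as well. Levels are given as normalized counts, that is, counts scaled by TMM factors to the mean library size of 4594673. Log2 fold changes ± SE and adjusted p-values come from edgeR's quasi-likelihood test over all 15760 tested genes with Benjamini-Hochberg adjustment. In bulk RNA, fewer cells of a kind and less RNA per cell cannot be told apart. A gene is said to rise or fall where its adjusted p-value was under 0.05. None of the 7 tested members reached a change of 1 on the log2 scale in any comparison. Such a change was passed by 5.62% of tested genes after cisplatin in A2780, 2.01% after cisplatin in Acis, 19.1% between the control groups and 19.2% between the cisplatin groups.

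**Figure D1:**
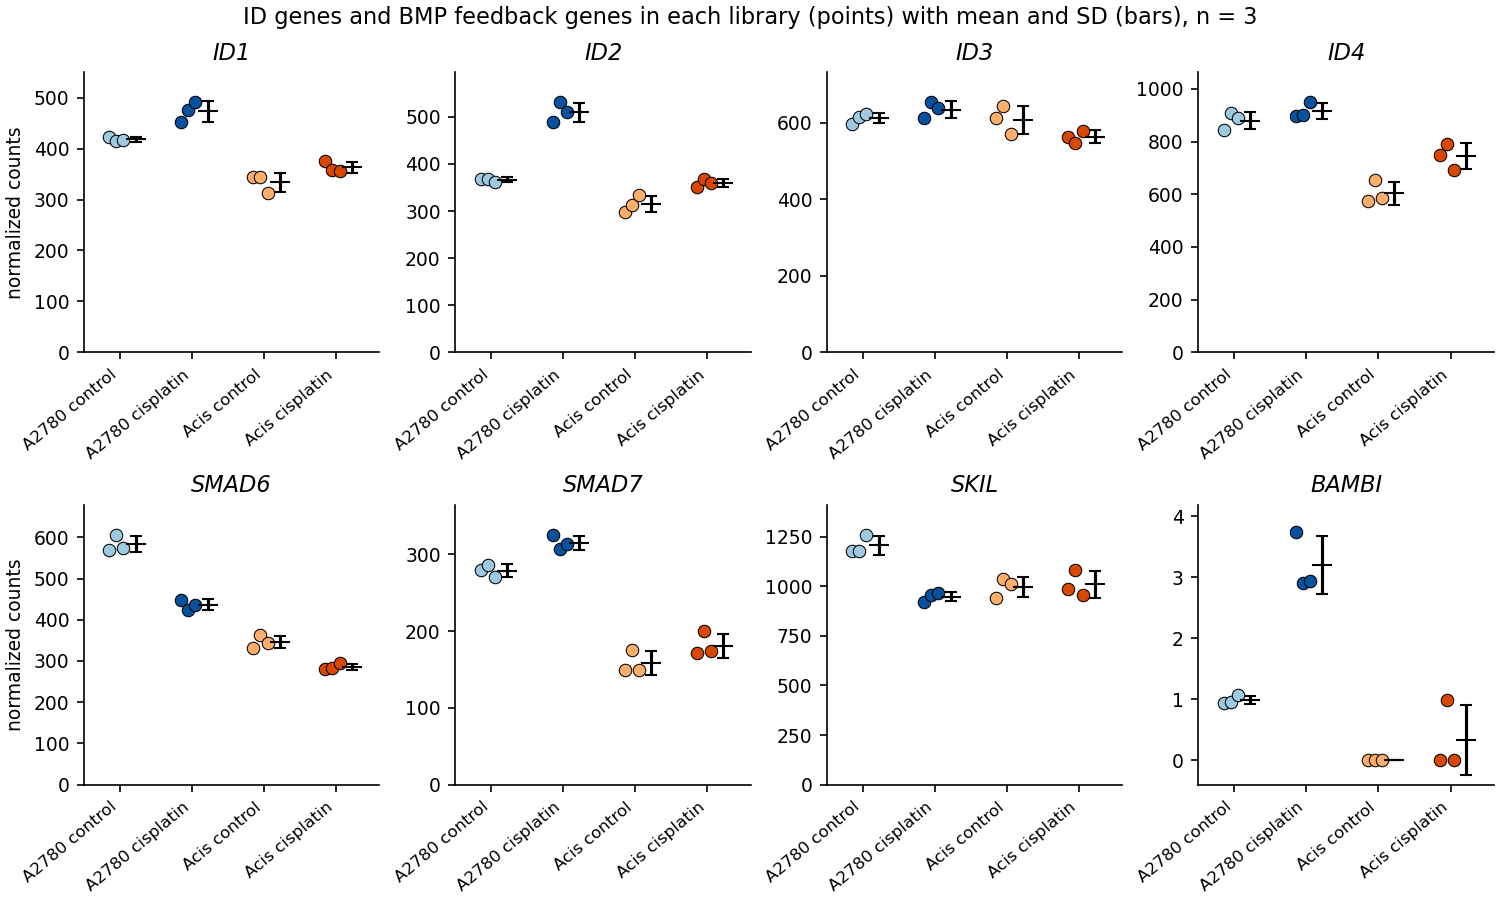
Normalized counts (y axis, linear) of the 8 genes in each of the 12 libraries, by group (x axis). Points are libraries, and horizontal marks with bars are means ± SD of 3 libraries. SMAD6 steps down over the 4 groups in the order drawn, from 584 to 286 on average, while the ranges of ID3 overlap between neighbouring groups.

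ID1 (chr20:31605283-31606515, plus strand) was at 423, 415 and 416 in A2780 control and 452, 476 and 491 in A2780 cisplatin. It was at 344, 344 and 312 in Acis control and 375, 358 and 356 in Acis cisplatin. All 4 groups of ID1 were apart, with no overlap between neighbours, and both Acis groups lay below both A2780 groups. ID1 rose with cisplatin in A2780 by 0.18 ± 0.051 (log2, adjusted p = 0.00463). In Acis the value was 0.12 ± 0.058 (adjusted p = 0.175), and the difference between the lines was -0.06 ± 0.077 (adjusted p = 0.711). The rise in A2780 had an adjusted p of 0.0528 with DESeq2 on the same genes, and the value in Acis was called with total counts as library size (0.18, adjusted p = 0.0307).

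ID2 (chr2:8678845-8684461, plus strand) showed the largest rise of the 7 tested genes in A2780. Its levels were 369, 369 and 362 in A2780 control against 490, 531 and 510 in A2780 cisplatin, a rise of 0.48 ± 0.051 (log2, adjusted p = 1.35e-08), or 39.2%. In Acis it went from 298, 312 and 334 to 352, 369 and 359, a rise of 0.20 ± 0.059 (adjusted p = 0.016), or 14.6%. The treated Acis libraries overlapped the range of untreated A2780. The effect of cisplatin was smaller in Acis than in A2780 by 0.28 on the log2 scale (difference -0.28 ± 0.078, adjusted p = 0.0119). The rise in Acis was not called with DESeq2 (adjusted p = 0.169), with replicates 2 and 3 of Acis control and replicates 1 and 2 of Acis cisplatin merged (adjusted p = 0.0613), or without Acis control replicate 1 (0.127), Acis control replicate 2 (0.0635) or Acis cisplatin replicate 2 (0.0714). The difference between the lines was not called with DESeq2 (0.0635), with merged replicates (0.0842) or without Acis control replicate 3 (0.0604). An antisense gene, ID2-AS1, overlaps the annotated 5′ part of ID2 on the other strand, and the counting used strand.

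ID3 (chr1:23557926-23559501, minus strand) did not pass the test with cisplatin in either line. A2780 had 597, 615 and 622 without and 611, 653 and 637 with cisplatin. Acis had 611, 642 and 570 without and 563, 546 and 579 with cisplatin. Its ranges overlapped between all neighbours in the order of the groups. Its change with cisplatin was 0.05 ± 0.046 in A2780 (log2, adjusted p = 0.353) and -0.11 ± 0.049 in Acis (adjusted p = 0.115), and the difference between the lines was -0.16 ± 0.067 (adjusted p = 0.0909). In A2780 its rise passed the test with total counts as library size (0.17, adjusted p = 0.00256), with upper-quartile factors (0.13, 0.015) and on genes with a mean of at least 50 counts (0.11, 0.0328). Without Acis control replicate 3, the fall in Acis passed the test as well (-0.15, 0.0327).

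ID4 (chr6:19837370-19842197, plus strand) rose in Acis and did not pass the test in A2780. It was at 843, 907 and 889 in A2780 control and 898, 901 and 949 in A2780 cisplatin, ranges that overlapped (log2 change 0.06 ± 0.047, adjusted p = 0.293). In Acis it went from 573, 654 and 585 to 748, 790 and 693, a rise of 0.30 ± 0.054 (adjusted p = 0.000133), or 23.2%. The effect of cisplatin was larger in Acis than in A2780 by 0.24 ± 0.072 (adjusted p = 0.019). This difference was not called with DESeq2 (adjusted p = 0.0875), total counts as library size (0.0843), upper-quartile factors (0.062), or without A2780 control replicate 2 (0.0544), Acis control replicate 1 (0.0598) or Acis cisplatin replicate 2 (0.0713). In A2780 the rise of ID4 was called with total counts (0.18, adjusted p = 0.00231), upper-quartile factors (0.14, 0.0129) and genes with a mean of at least 50 counts (0.12, 0.0301).

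SMAD6 (chr15:66702236-66782849, plus strand), the inhibitory SMAD that acts mainly on BMP receptors, fell with cisplatin in both lines. In A2780 it went from 570, 607 and 575 to 449, 424 and 437, and in Acis from 332, 362 and 343 to 281, 283 and 295. No 2 of these groups overlapped. The fall was -0.42 ± 0.047 in A2780 (log2, adjusted p = 4.03e-08) and -0.27 ± 0.060 in Acis (adjusted p = 0.00135), and the difference of 0.14 ± 0.077 between the lines did not pass the test (adjusted p = 0.246). The falls were called under all 24 alternatives tried, with log2 values of -0.46 to -0.30 in A2780 and -0.30 to -0.22 in Acis. A long noncoding RNA gene is annotated within SMAD6 on the same strand, so reads from any shared exon are uncertain.

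SMAD7 (chr18:48919853-48950965, minus strand), which restrains both BMP and TGF-beta receptors, went the other way. It was at 280, 286 and 270 in A2780 control and 326, 307 and 313 in A2780 cisplatin, a rise of 0.18 ± 0.063 (log2, adjusted p = 0.021). In Acis it was at 149, 176 and 149 without and 171, 200 and 174 with cisplatin, ranges that overlapped (0.20 ± 0.086, adjusted p = 0.109). The difference between the lines was 0.02 ± 0.11 (adjusted p = 0.944). The rise in A2780 was not called with DESeq2 (adjusted p = 0.134), without a filter on low counts (0.0712), or without A2780 control replicate 1 (0.0606), A2780 control replicate 3 (0.0953) or A2780 cisplatin replicate 1 (0.090). The value in Acis was called with total counts as library size (0.25, 0.0332) and without Acis control replicate 2 (0.28, 0.0486).

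SKIL (chr3:170357342-170396835, plus strand), the nuclear SMAD corepressor, had the clearest difference between the lines. Its levels were 1177, 1180 and 1261 in A2780 control and 921, 954 and 968 in A2780 cisplatin, a fall of -0.34 ± 0.044 (log2, adjusted p = 2.99e-07), or 21.2% less. In Acis it was at 939, 1035 and 1011 without and 987, 1083 and 956 with cisplatin (0.02 ± 0.046, adjusted p = 0.822). Untreated A2780 thus stood above the other 3 groups. The effect of cisplatin differed between the lines by 0.37 ± 0.064 (adjusted p = 0.00019), a call made under all 23 alternatives tried for it, with values of 0.30 to 0.40.

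BAMBI (chr10:28677510-28682932, plus strand) was near the limit of detection. Its raw counts were 1, 1 and 1 without and 4, 3 and 3 with cisplatin in A2780. In Acis they were 0, 0 and 0 without and 0, 1 and 0 with cisplatin. The 10 reads of A2780 cisplatin were most of its 14 reads in all. A count of 0 over the 3 Acis control libraries allows up to 3 reads, a mean of 1.09 normalized counts per library, and this limit covers counting error only. Without the filter on low counts, edgeR gave adjusted p-values of 0.151 for cisplatin in A2780 and 0.0182 for Acis cisplatin against A2780 cisplatin, while DESeq2 on all genes gave 0.108 for the latter.

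Counted together, 3 of the 7 tested members rose with cisplatin in A2780 (ID1, ID2 and SMAD7), 2 fell (SMAD6 and SKIL) and 2 did not pass. Over all tested genes, 21.2% rose and 28.2% fell, so the share of members that fell was close to this background. The median change of the members was 0.06 on the log2 scale, against -0.01 over all tested genes. In Acis, 2 of 7 rose (ID2 and ID4), 1 fell (SMAD6) and 4 did not pass, against 9.35% and 12.4% of all tested genes, with medians of 0.12 and 0.01. The difference between the lines passed for SKIL and ID4 upwards and for ID2 downwards, against 13.4% and 5.48% of tested genes, and with total counts or upper-quartile factors it passed for SKIL upwards and for ID2 and ID3 downwards. With total counts as library size, the split over all genes moved from 3347 higher and 4451 lower to 5302 and 3060 in A2780, from 1474 and 1962 to 2346 and 1411 in Acis, and from 2113 and 863 to 1463 and 1572 for the difference. With upper-quartile factors these splits were 4628 and 3466, 1880 and 1617, and 1603 and 1403. Total counts put the median of all genes in A2780 at 0.10, beside 0.17 for ID3 and 0.18 for ID4.

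**Figure D2:**
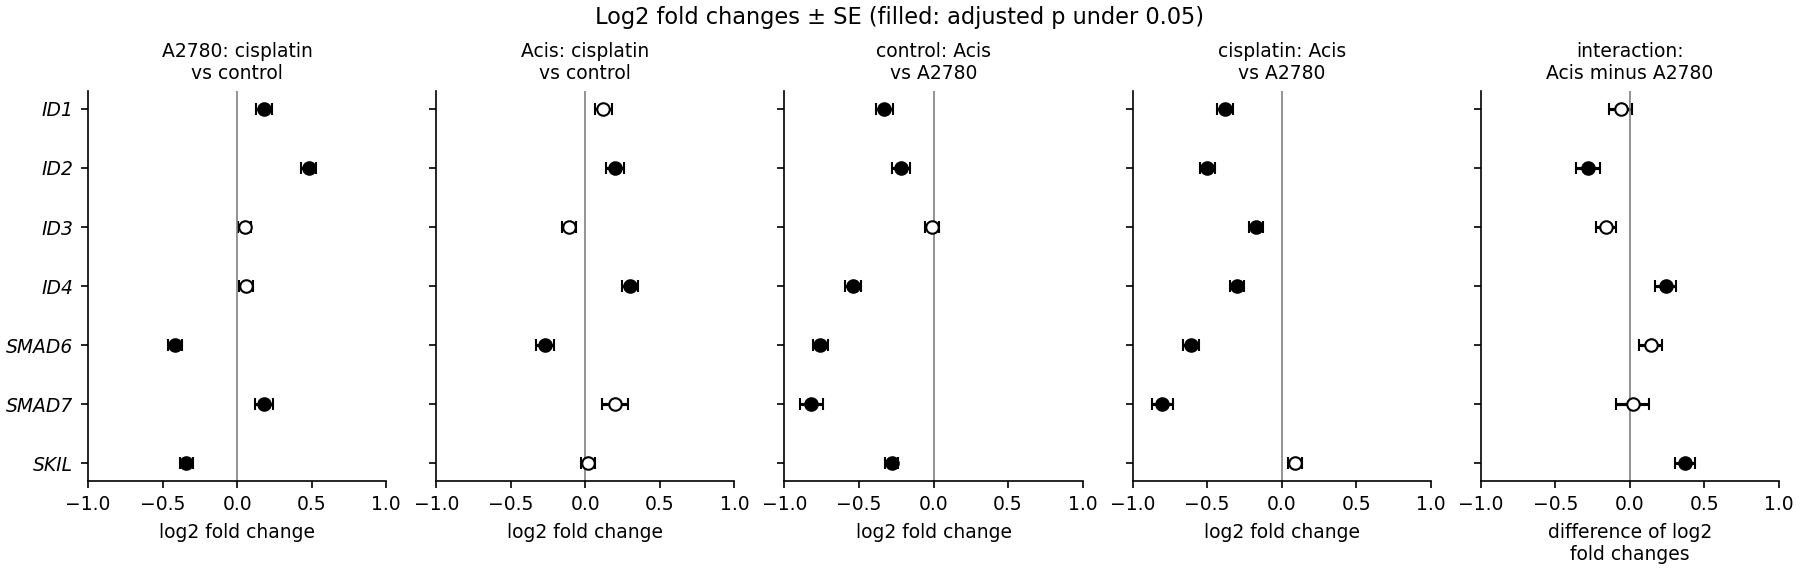
Log2 fold changes (x axis) of the 7 tested genes in the 4 comparisons and, at right, the difference of the cisplatin effects between the lines. Points are edgeR estimates with bars of 1 SE, filled where the adjusted p-value was under 0.05. SMAD6 lies left of 0 in the first 4 panels, and ID2, ID4 and SKIL have filled points in the last.

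The ID genes are short, from 1.23 kb (ID1) to 5.62 kb (ID2), and their changes can be read against genes of like length. Of the 3870 tested genes of 1 to 10 kb, 43.8% rose and 6.2% fell in A2780, with a median of 0.22 on the log2 scale, and 14.9% rose and 2.58% fell in Acis, with a median of 0.09. Within this class, the change of ID2 in A2780 was higher than that of 74.3% of genes, ID1 than 44.2%, ID4 than 28.4% and ID3 than 27.7%. In Acis these shares were 63.6% for ID2, 54.5% for ID1, 72.3% for ID4 and 14.8% for ID3. Among the 8201 genes of 10 to 100 kb, SMAD6 (80.6 kb) was higher than 9.41% in A2780 and 5.82% in Acis, SKIL (39.5 kb) than 13.5% and 50.1%, and SMAD7 (31.1 kb) than 77.7% and 80.6%. For the difference between the lines, 2.69% of genes of 1 to 10 kb passed upwards and 12.4% downwards, with a median of -0.13. ID2 was higher there than 28.2% of genes and ID4 than 82.1%. Of genes of 10 to 100 kb, 16.0% passed upwards and 4.16% downwards, and SKIL was higher than 84.7%. The part of gene length in these changes was not tested.

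Between the lines, the members were lower in Acis. Without treatment, 6 of 7 fell and none rose, and ID3 did not pass, while 30.6% of all tested genes were lower and 28.2% higher. The median of the members was -0.33 on the log2 scale against -0.01 over all tested genes. The 2 inhibitory SMADs differed most, SMAD7 by -0.82 ± 0.078 (adjusted p = 4.97e-10) and SMAD6 by -0.76 ± 0.051 (adjusted p = 5.12e-13), or 0.566-fold and 0.592-fold the A2780 control level. ID4 followed at -0.54 ± 0.052, ID1 at -0.33 ± 0.056, SKIL at -0.28 ± 0.045 and ID2 at -0.22 ± 0.059, the largest adjusted p being 0.00174 for ID2. ID3 was the exception, at -0.01 ± 0.048 (adjusted p = 0.91). The 6 falls passed under all 24 alternatives.

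After cisplatin, 6 of 7 were again lower in Acis than in A2780, against 31.2% of all tested genes, and none was higher, against 31.8%. The order began with SMAD7 at -0.80 ± 0.070 (log2, adjusted p = 1.1e-10), SMAD6 at -0.61 ± 0.055 and ID2 at -0.50 ± 0.051. ID1 at -0.38 ± 0.052, ID4 at -0.30 ± 0.048 and ID3 at -0.17 ± 0.047 (adjusted p = 0.00239) followed. SKIL was at 0.09 ± 0.046 (adjusted p = 0.0953), and it was called higher only without Acis cisplatin replicate 3 (0.13, adjusted p = 0.0202). This comparison and the one of the control groups do not share libraries with each other, but each shares its libraries with a cisplatin comparison.

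Levels per length put ID3 first among these genes in every group. Per kilobase of the MANE Select transcript, ID3 stood at 644 ± 13.8 normalized counts in A2780 control, ID1 at 426 ± 4.50, ID2 at 282 ± 3.32 and ID4 at 227 ± 8.47 (SD, n = 3). The feedback genes were lower, SKIL at 169 ± 6.71, SMAD6 at 153 ± 5.20, SMAD7 at 83.4 ± 2.48 and BAMBI at 0.584 ± 0.0419. In Acis control the values were 639 ± 37.8 for ID3, 339 ± 18.7 for ID1, 242 ± 13.8 for ID2, 156 ± 11.4 for ID4, 139 ± 6.98 for SKIL, 90.4 ± 3.95 for SMAD6 and 47.3 ± 4.63 for SMAD7. Reads were counted per gene and not per transcript, so the order depends on the length used. Per base of all annotated exons, ID3 stayed first in each group. In A2780 control, ID4 (0.231 reads per base) then lay above ID2 (0.169), and SMAD7 (0.0719) above SMAD6 (0.0694). In Acis control, ID4 (0.143) lay above ID2 (0.131) and SMAD7 (0.0368) below SMAD6 (0.0372).

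These levels touch a limit of the counting. Duplicates were removed from single-end reads, which keeps about 1 read per start position and strand, so a gene with reads at most positions cannot count much higher. ID3 had a mean of 0.654 reads per base of its MANE Select transcript in A2780 control, ID1 0.433, ID2 0.287 and ID4 0.231, and over all annotated exons ID3 had more reads per base than 99.6% of tested genes. A correction that treats start positions as equally likely, chosen after seeing the data, was used as an alternative. With the MANE length it moved ID2 in A2780 from 0.48 to 0.59 on the log2 scale, ID1 from 0.18 to 0.25 and ID3 from 0.05 to 0.11. The gap of ID3 between the cisplatin groups went from -0.17 to -0.33. No call of the 7 members changed with it, and real start positions are not equally likely, so these values describe only how far the counts may be compressed.

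**Figure D3:**
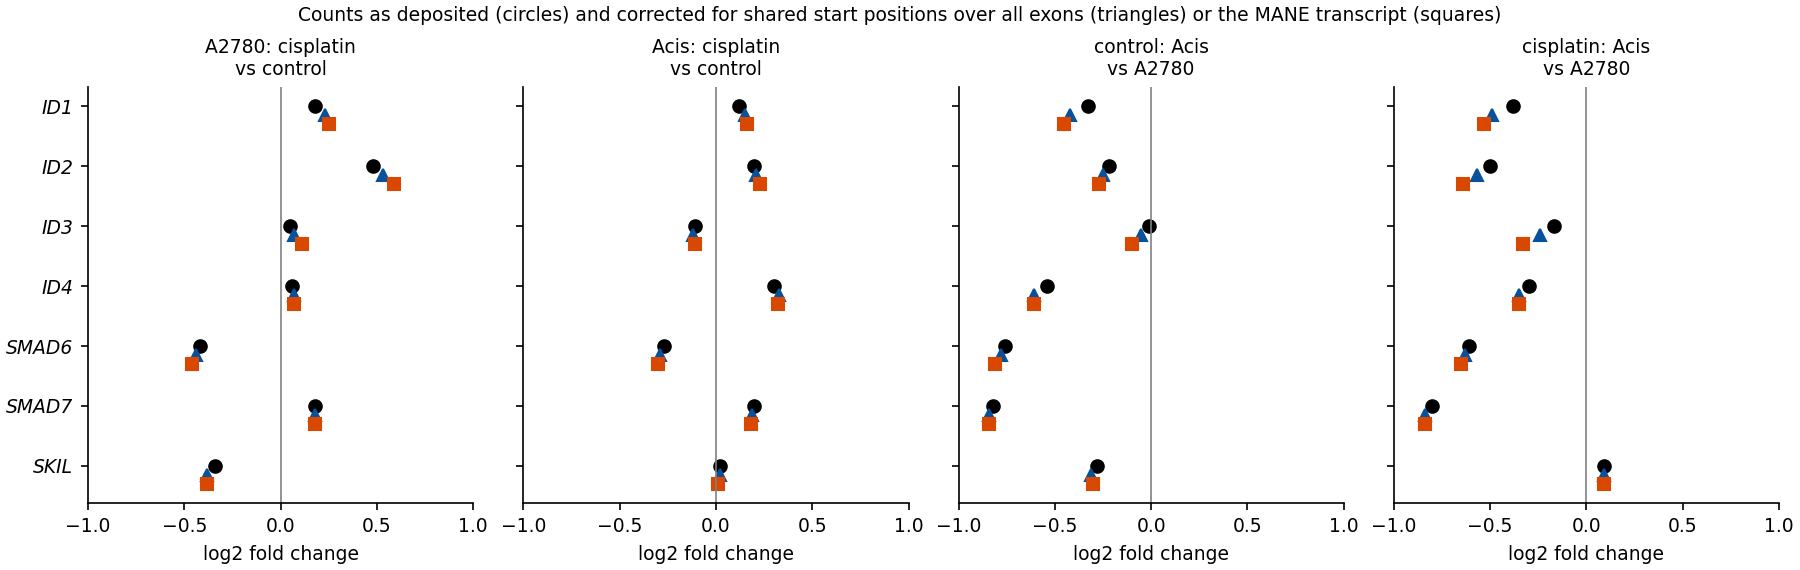
Log2 fold changes (x axis) of the 7 tested genes in the 4 comparisons, from counts as deposited (circles) and after correction for shared start positions, with the length of all annotated exons (triangles) or of the MANE Select transcript (squares). The symbols part most for ID3 between the cisplatin groups, at -0.17, -0.24 and -0.33.

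Accessible chromatin was called at the starts of most members in both lines. Each condition had 1 list of peaks that overlapped in all its replicates (3 for control, 2 for cisplatin), so peak heights have no replicate error. Within 1000 bp of the annotated gene start, 7 of 8 members had a peak in A2780 control and 6 after its treatment, against 5 in Acis control and 7 after treatment. Of 14127 protein-coding genes in the count table, 70.7%, 72.2%, 63.8% and 68.1% had one in the same order of lists. Measured from the MANE Select start, chosen after seeing the data because the gene record of ID2 begins further upstream, the numbers were 7, 7, 6 and 7, against shares of 67.7% to 76.9% of 13911 such genes. SMAD7 had none in any list, its nearest peak ending between -1204 and -1185 bp with a fold enrichment of 10.4 to 12.2. The lists hold 34979, 32159, 24485 and 27321 peaks with median enrichments of 9.96, 8.79, 12.8 and 11.0, so enrichments are not compared between lists.

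ID4 had the strongest start peak of the ID genes in each list, with an enrichment of 16.8 (control) and 8.90 (cisplatin) in A2780 and 19.9 in both lists of Acis. The start peak of ID3 stood at 5.18, 6.73, 9.84 and 7.68, below the median of its list each time. At ID1, A2780 control had a single peak of 1360 bp that ran from -1211 to 148 bp from the start, with its summit at -956 bp, and A2780 cisplatin had one of 2157 bp with the same summit. In Acis, 2 separate peaks were listed there, one with its summit at -915 bp (control) or -874 bp (cisplatin) and an enrichment of 7.79 or 6.66, and one with its summit at -117 bp and an enrichment of 12.2 or 11.2. The printed upstream stretch of ID1 lies under the first of these.

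SMAD6 had a start peak in each list (8.77, 8.44, 10.5 and 10.6) and a second one about 72 kb into the gene, with summits 72258, 72286 and 72322 bp from the start and enrichments of 18.3 in A2780 control, 15.5 in A2780 cisplatin and 19.6 in Acis cisplatin. Acis control had no peak listed there. SKIL had its peak just inside the gene, with summits 640 to 707 bp after the start, and in A2780 cisplatin alone this peak reached over the start. BAMBI, with almost no reads, had a start peak in A2780 control (8.13), A2780 cisplatin (9.14) and Acis cisplatin (8.49) and none in Acis control. The one in Acis cisplatin had a -log10 q of 13.7 and was lost when at least 20 was asked for. Acis control had the shortest list and needed overlap in 3 replicates, against 2 for cisplatin. A peak missing from it, at SMAD6 or BAMBI, is therefore not a measured absence.

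**Figure D4:**
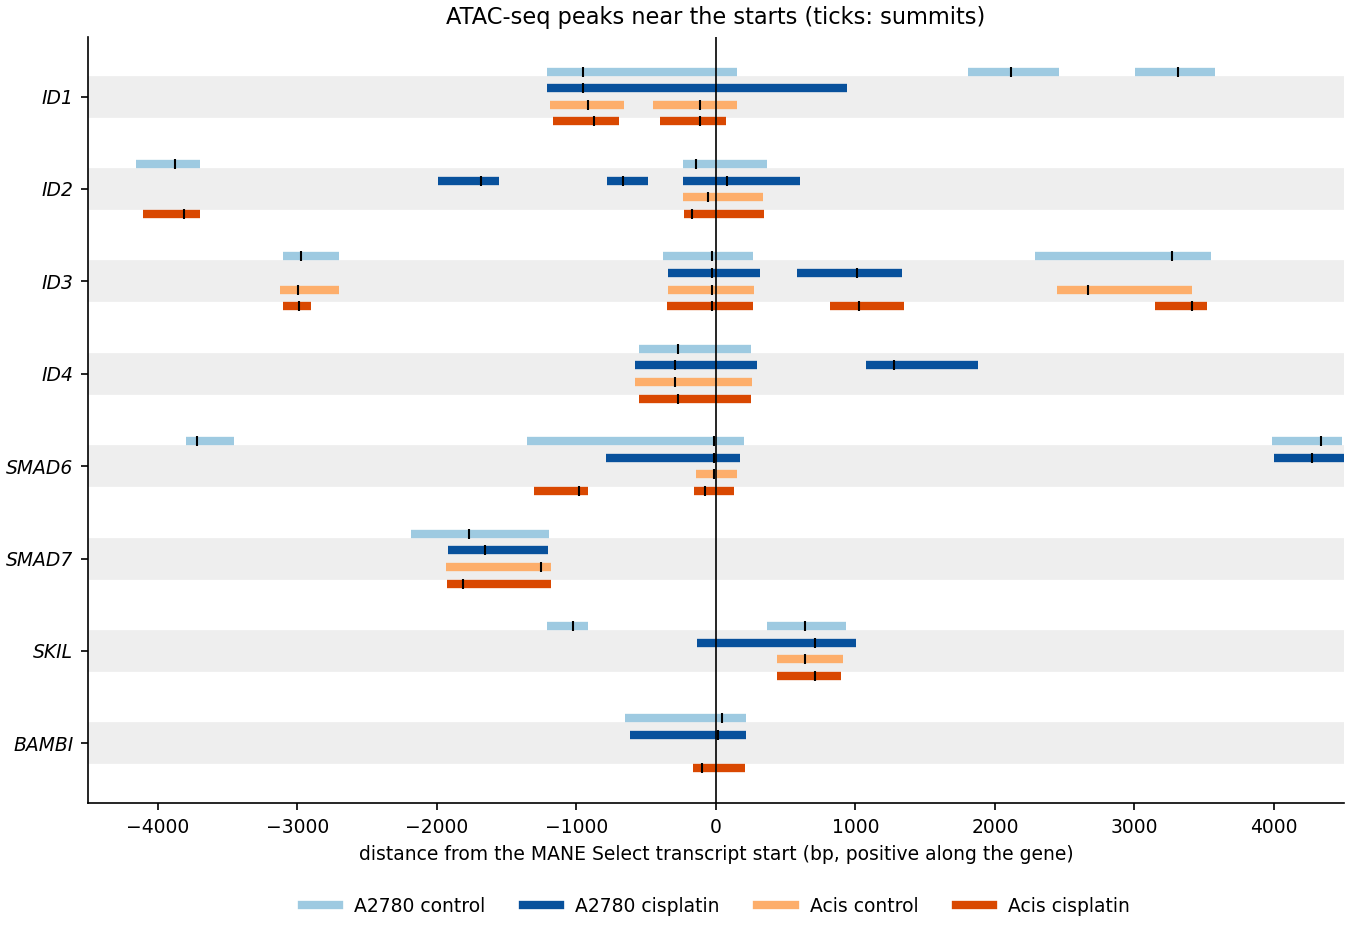
ATAC-seq peaks (bars) and their summits (ticks) around the MANE Select start of the 8 genes, by distance in bp along the gene (x axis), coloured by condition. ID1 shows 1 long peak over its start in each A2780 list and 2 shorter ones in each Acis list, and SMAD7 shows peaks only upstream.

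The rest of the pathway was read from a list of 75 genes, of which 66 had a row and 50 were tested. After cisplatin in A2780, 8 rose and 28 fell, against 21.2% and 28.2% of all tested genes, with a median of -0.32 on the log2 scale against -0.01. In Acis, 9 rose and 16 fell, against 9.35% and 12.4% of all tested genes, with a median of -0.02 against 0.01. With total counts as library size, 12 rose and 24 fell in A2780, and 9 rose and 11 fell in Acis, where the median became 0.03. With upper-quartile factors these counts were 10 and 25, and 9 and 13, with a median of 0.01 in Acis. Of the 50, 14 are at least 100 kb long, and all of these fell in A2780 and 9 fell in Acis. Of all tested genes of 100 to 300 kb, 69.5% fell in A2780 and 42.5% in Acis, and the part of length in the pathway's change was not tested.

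Most BMP ligands were too low to test. Of 10, BMP7 and BMP2 were tested, and BMP4 had 14 reads in all. BMP7 was higher in Acis, at 562, 554 and 502 in Acis control against 112, 100 and 95.0 in A2780 control (log2 difference 2.39 ± 0.078, adjusted p = 3.26e-20). With cisplatin it fell in Acis (log2 change -0.28 ± 0.055, adjusted p = 0.000378), to 421, 428 and 483. In A2780 it went from 112, 100 and 95.0 to 85.2, 86.0 and 88.3 (-0.24 ± 0.12, adjusted p = 0.0927), and the difference between the lines was -0.04 ± 0.13 (adjusted p = 0.902). BMP2 had 2 reads in A2780 control and 24 in Acis control, and it also passed the test between the lines. Of the TGF-beta, activin and nodal ligands, 5 of 9 were tested. INHBA, which encodes a subunit of activin A, had 3 reads in A2780 control and 3071 in Acis control. TGFB3 (0.84 ± 0.078) and GDF11 (0.40 ± 0.051) were higher in Acis control and TGFB2 was lower, with 83 reads in A2780 control and 2 in Acis control.

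Most receptors and co-receptors fell in A2780. Of 9 tested, 8 fell and 1, RGMB, rose, against 28.2% and 21.2% of all tested genes, with a median of -0.57 on the log2 scale. In Acis, 4 fell and 2 rose, against 12.4% and 9.35%, with a median of -0.18. RGMB, a BMP co-receptor, rose in both lines (0.31 ± 0.056 in A2780 and 0.38 ± 0.050 in Acis). BMPR2, the type II BMP receptor, went from 1166, 1226 and 1175 to 753, 737 and 787 in A2780 (-0.65 ± 0.041, adjusted p = 9.3e-13) and from 1257, 1340 and 1319 to 1124, 1205 and 1114 in Acis (-0.18 ± 0.038, adjusted p = 0.000696). BMPR1A, a type I BMP receptor, fell by -0.86 ± 0.066 in A2780 and -0.37 ± 0.066 in Acis. The difference between the lines passed for 6 of the 9, all upwards, against 13.4% of tested genes. It was 0.63 ± 0.16 for TGFBR3, 0.62 ± 0.074 for TGFBR1, 0.54 ± 0.10 for ACVR2B, 0.49 ± 0.094 for BMPR1A, 0.46 ± 0.056 for BMPR2 and 0.37 ± 0.10 for ACVR1. DESeq2 called 4 of these differences and not those of TGFBR3 (adjusted p = 0.0699) and ACVR1 (0.0917), and of the changes in Acis it called 2 falls and 1 rise. TGFBR1, a type I TGF-beta receptor, fell in A2780 (-0.42 ± 0.052) and rose in Acis (0.20 ± 0.053), a rise that was not called with DESeq2 (adjusted p = 0.0822) or without Acis control replicate 1 (0.0861). Between the control groups, ACVR2B (-2.08 ± 0.061) and the co-receptor TGFBR3 (-1.61 ± 0.10) were lower in Acis. Of the 9 receptors, 4 are at least 100 kb long, and all 4 are among the 6. The difference passed upwards for 28.6% of tested genes of 100 to 300 kb and 16.0% of those of 10 to 100 kb. The part of length in it was not tested.

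All 6 receptor and common SMADs fell in A2780, against 28.2% of all tested genes, with a median of -0.45 on the log2 scale. In Acis 1 of them, SMAD3, fell, against 12.4%, and the median was 0.03. Their median length is 77.0 kb, and 2 are at least 100 kb long. Of tested genes, 28.4% of those of 10 to 100 kb and 69.5% of those of 100 to 300 kb fell in A2780. The part of length was not tested. SMAD5, which carries BMP signals, went from 823, 882 and 865 to 630, 630 and 715 in A2780 (-0.38 ± 0.053) and was at 0.08 ± 0.052 in Acis (adjusted p = 0.295). SMAD2, which carries TGF-beta and activin signals, fell in A2780 by -0.55 ± 0.042 and was at -0.03 ± 0.041 in Acis. The difference between the lines passed for 3 of the 6 (SMAD2, SMAD5 and SMAD4), all upwards, against 13.4% of tested genes. This share was 16.0% among genes of 10 to 100 kb and 28.6% among those of 100 to 300 kb. With total counts or upper-quartile factors, 5 of the 6 fell in A2780. SMAD9, another carrier of BMP signals, was lower in Acis control by -2.24 ± 0.16.

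Of the extracellular antagonists, 5 of 12 were tested, and NOG, CHRD and GREM1 were among those too low. FSTL3, which binds activin, rose in A2780 (0.42 ± 0.11) and in Acis (0.28 ± 0.069, not called with DESeq2, adjusted p = 0.0709) and was higher in Acis control by 1.48 ± 0.093. NBL1 (1.08 ± 0.069) and SOSTDC1 (0.84 ± 0.064) were higher in Acis control, and BMPER was lower, with 121 reads in A2780 control and 1 in Acis control. Of the intracellular regulators, 13 of 14 were tested. In A2780, 2 rose and 8 fell, against 21.2% and 28.2% of all tested genes. In Acis, 3 rose and 6 fell, against 9.35% and 12.4%, and DESeq2 called 1 and 4. Of the 13, 5 are at least 100 kb long, and all 5 fell in A2780 and 3 in Acis. Of tested genes of 100 to 300 kb, 69.5% fell in A2780 and 42.5% in Acis, and the part of length was not tested. TOB1, an antiproliferative protein that can bind SMADs, rose by 0.92 ± 0.051 in A2780 and 0.52 ± 0.062 in Acis. LEMD3, which binds SMADs at the inner nuclear membrane, fell by -0.35 ± 0.054 and -0.20 ± 0.044. Between the control groups, 5 of the 13 were higher in Acis and 6 lower, against 28.2% and 30.6% of all tested genes. Those lower included ZNF423 (-3.67 ± 0.18) and the corepressor TGIF2 (-0.68 ± 0.062). Those higher included PMEPA1 (7.48 on the log2 scale) and LEMD3 (0.72). The size for PMEPA1 is imprecise, since even its log2 change of 2.62 with cisplatin in A2780 did not pass the test.

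Most other targets of SMADs that passed the test rose. Of 7 tested, 4 rose and 1 fell in A2780, against 21.2% and 28.2% of all tested genes. In Acis 3 rose and none fell, against 9.35% and 12.4%. The 7 have a median length of 5.49 kb. Of tested genes of 1 to 10 kb, 43.8% rose and 6.2% fell in A2780, with a median of 0.22 against 0.27 for these targets. In Acis 14.9% of that class rose and 2.58% fell, with medians of 0.09 and 0.38. The part of length was not tested. HES1 went from 154, 164 and 170 to 358, 371 and 359 in A2780 (1.16 ± 0.065) and from 70.1, 76.7 and 60.4 to 114, 107 and 121 in Acis (0.72 ± 0.11). HEY1 rose by 0.68 ± 0.077 and 0.91 ± 0.25, and KLF10 by 0.49 ± 0.059 and 0.19 ± 0.055, with a difference of -0.30 ± 0.081 between the lines for KLF10 (adjusted p = 0.0109). The rise of KLF10 in Acis was not called with DESeq2 (adjusted p = 0.0995), with merged replicates (0.0643) or without Acis control replicate 1 (0.0556) or 2 (0.0654) or Acis cisplatin replicate 1 (0.0622) or 2 (0.0621). That of HEY1 in Acis was not called with merged replicates (0.0717), without Acis control replicate 2 (0.0678) or without Acis cisplatin replicate 2 (0.0953). HES1 and HEY1 are also targets of Notch. Between the control groups, 5 of the 7 were lower in Acis and 2 higher, against 30.6% and 28.2% of all tested genes. Those lower included the homeobox gene MSX1, with 1949 reads in A2780 control and 2 in Acis control. The matricellular gene CCN2 was lower as well, with 786 and 7. The 2 higher were MSX2 (5.03 on the log2 scale) and KLF10 (0.48).

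The E proteins are the partners that ID proteins hold back. All 3 were tested, and TCF12 and TCF4 fell with cisplatin in both lines, TCF12 by -0.30 ± 0.041 in A2780 and -0.19 ± 0.041 in Acis, and TCF4 by -0.66 ± 0.066 and -0.30 ± 0.082. TCF3 was at -0.08 ± 0.041 in A2780 (adjusted p = 0.125) and fell in Acis by -0.14 ± 0.037. In Acis, the fall of TCF4 was not called with merged replicates (adjusted p = 0.0503) or without Acis control replicate 3 (0.0516), and that of TCF3 not with total counts as library size (0.0819). Between the control groups, TCF3 was higher in Acis (0.50 ± 0.039), TCF4 lower (-0.74 ± 0.069) and TCF12 at -0.02 ± 0.040 (adjusted p = 0.756).

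**Figure D5:**
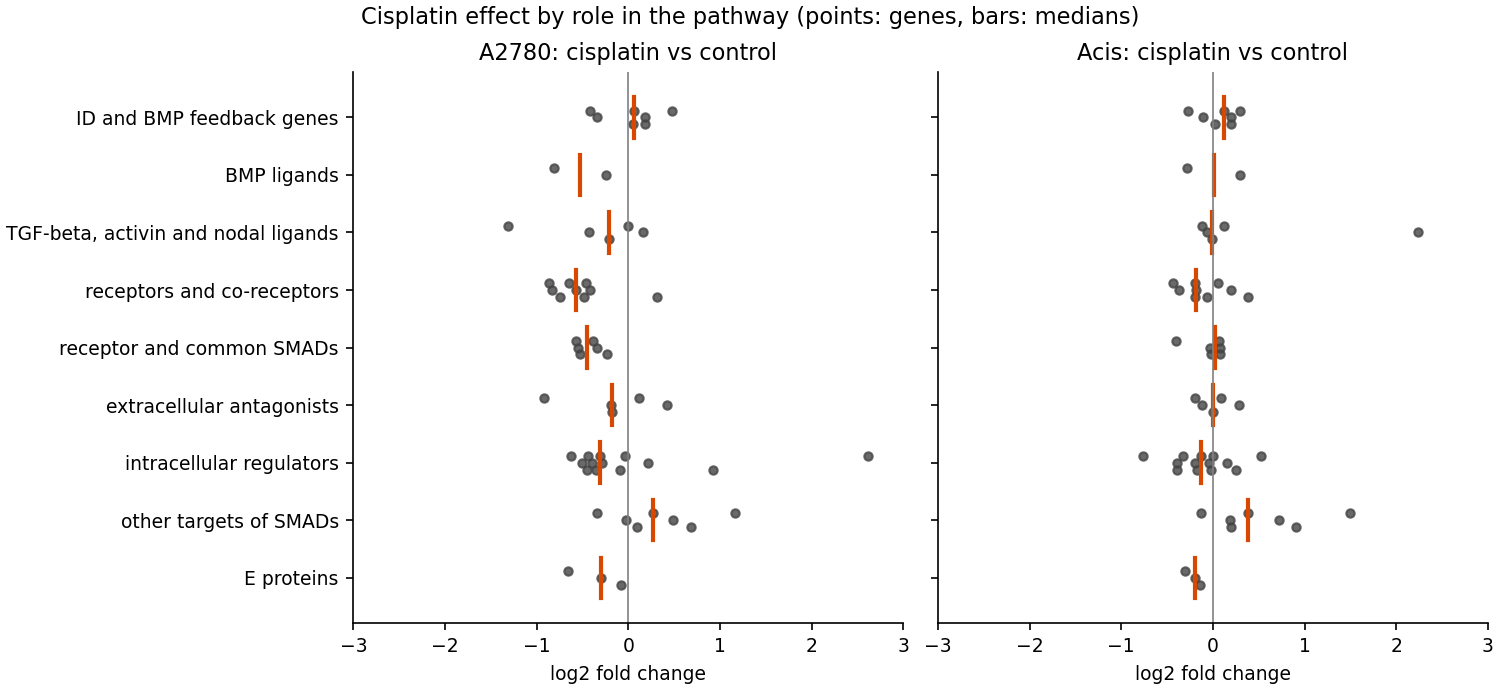
Log2 fold changes with cisplatin (x axis) of every tested gene of the pathway by role, in A2780 (left) and Acis (right). Points are genes, with fitted values that are imprecise for genes of few reads, and bars are group medians. Receptors have a median of -0.57 in A2780 and -0.18 in Acis, and the SMADs -0.45 and 0.03.

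Other genes had patterns over the groups like those of the members. Likeness was the root mean square difference of 3 log2 fold changes against A2780 control, among 10680 other genes with a mean of at least 50 normalized counts. The closest genes were PIH1D1 (0.0178) and BOLA1 (0.0266) to ID2, RAP1GAP2 (0.0227) and FOXO3 (0.0268) to SMAD6, and FRA10AC1 (0.0109) and UBE2K (0.0187) to SKIL. ZNF548 and ARMCX6 (0.0197 each) were closest to ID1, DCPS (0.00864) and TOMM40P4 (0.0183) to ID3, NXT2 (0.0324) and MPV17 (0.0418) to ID4, and ABCA7 (0.0298) and TMEM223 (0.0316) to SMAD7. All these distances lie below the SEs of the members' own log2 changes, which were 0.044 or more, so which gene is closest is uncertain. Of the 10680 genes, between 38 (for SMAD6) and 662 (for ID3) lay within 0.1 of a member.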

How the data were processed

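RNA-seq counts of 12 libraries and 4 lists of ATAC-seq peaks were used, and XR-seq was not analysed here. The raw counts were deposited by the authors after alignment of 75 nt single-end reads to hg38 with STAR, removal of duplicates with Picard and strand-specific htseq-count. The fold enrichment and -log10 q of each peak were computed by MACS2 and deposited by the authors, who kept 1 list per condition of peaks that overlapped by more than 50% in all replicates. These enrichments were used as deposited.

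The counts were fitted with edgeR 4.0.16 (R 4.3.3) by its quasi-likelihood model with 1 mean for each of 4 groups (8 residual degrees of freedom), after its default filter on low counts and with TMM factors of 0.965 to 1.05. P-values were adjusted by Benjamini-Hochberg over all tested genes. DESeq2 1.42.0, other scalings and filters, each library left out, merged replicates and the replicate number as a block were alternatives, and the fits were tested on simulated data. Squared differences between replicate pairs averaged 0.73 to 1.53 times the variance from counting alone. Each SE was taken as the absolute log2 fold change divided by the square root of the quasi-likelihood F statistic. Limits of detection cover counting error only. Gene positions came from GENCODE on GRCh38, which holds 23513 of the identifiers, promoters from RefSeq, and plots from matplotlib 3.10.9.

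The genes studied, the pathway and marker lists and the tests were chosen with earlier results of these data known. Named were the 8 members, at most 4 genes of each pathway group with the smallest adjusted p-values, at most 6 ligands, receptors, antagonists or targets with the smallest adjusted p-values below 0.05 for the difference between the lines, and the 2 genes closest in pattern to each member with a mean of at least 50. The alternatives added after seeing the data were the correction for shared start positions and the MANE Select starts. BMP4, NOG, CHRD, GREM1, RGMB, SMAD4, MSX2 and PMEPA1 were named after their values were seen.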

Additional observations from a re-analysis of the deposited data

Results flagged for a closer look

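The effect of cisplatin differed between Acis and A2780, by the interaction test of edgeR, for 3 of the genes studied. ID2 was at -0.28, ID4 at 0.24 and SKIL at 0.37 on the log2 scale. Of all tested genes, 13.4% passed this test upwards and 5.48% downwards. These shares were 2.69% and 12.4% for genes of 1 to 10 kb and 16.0% and 4.16% for 10 to 100 kb. They were 28.6% and 0.712% for 100 to 300 kb and 14.8% and 1.17% for longer genes. The part of length in these differences was not tested. ID2 rose more in A2780, ID4 rose in Acis alone of the 2 lines by the test in each, and SKIL fell in A2780 and was at 0.02 in Acis. Of the receptors, the difference was 0.63 for TGFBR3, 0.62 for TGFBR1, 0.54 for ACVR2B, 0.49 for BMPR1A, 0.46 for BMPR2 and 0.37 for ACVR1. It was 0.53 for SMAD2, 0.46 for SMAD5, 0.41 for SMAD4, 0.36 for TCF4, -0.30 for KLF10, -0.40 for TOB1 and -0.44 for HES1. DESeq2 did not call the difference for ID2 (adjusted p = 0.0635), ID4 (0.0875), TGFBR3 (0.0699), ACVR1 (0.0917), TCF4 (0.102) and HES1 (0.081). That of HES1 was also lost with merged replicates (0.108) or without A2780 control replicate 1 (0.0667), Acis control replicate 1 (0.0755) or 2 (0.149) or Acis cisplatin replicate 2 (0.0772), that of KLF10 without A2780 control replicate 1 (0.0598), and that of TCF4 without Acis cisplatin replicate 1 (0.0524). The other alternatives that lost the difference for ID2 and ID4 are listed with those genes above. TGFB2 passed the interaction test with 2 reads in Acis control, and no value is given for it.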

How the results depend on the processing

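Of 833 values of the 7 tested members recomputed under 24 alternatives, 783 kept their direction and their side of the threshold, 25 lost and 15 gained the call, and 10 changed sign. With DESeq2, on the filtered genes or on all genes, 3 members passed after cisplatin in A2780 against 5, and 1 passed for the difference between the lines against 3. With total counts as library size, 5 passed after cisplatin in Acis against 3. Of the other pathway genes, 25 passed in Acis, against 15 with DESeq2 on either set of genes and 16 with the closest replicate pairs merged. The change of SKIL in Acis (0.02) became -0.01 with DESeq2 on all genes and ranged from -0.03 to 0.06 with 1 library left out. ID3 between the control groups (-0.01) ranged from -0.06 to 0.02 with 1 library left out. The difference between the lines for SMAD7 (0.02) was -0.04 with total counts, -0.03 with upper-quartile factors, -0.03 on genes with a mean of at least 50 counts, and -0.05 to 0.11 with 1 library left out. None of these 3 values passed the test under any of the alternatives, and the cause was not tested. With 1 library left out, 4 to 5 members passed in A2780, 2 to 4 in Acis, 6 between the control groups, 6 to 7 between the cisplatin groups and 2 to 3 for the difference. With the replicate number as a replicate block, 5, 3, 6, 6 and 3 members passed in the same order, and no call of a member changed, while the difference for SMAD9 passed (0.65, adjusted p = 0.0483, against 0.079). Libraries with the same number correlated at 0.035 to 0.282 among A2780 control, A2780 cisplatin and Acis control. Those with differing numbers did so at -0.182 to 0.089. Between Acis cisplatin and the other groups, these ranges were -0.205 to 0.099 and -0.199 to 0.267. The numbers were therefore not taken as pairs, and whether they mark a shared batch in some groups was not tested. Numbers of members with a start peak stayed within 1.5 times the main number under the other windows and thresholds. Depth limits BAMBI and most BMP ligands.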
